A study of Mus musculus with 6 samples.

Results

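The HSP70 and HSP110 genes encode ATP-driven chaperones, and 10 of them were chosen here by name: Hspa1a, Hspa1b, Hspa2, Hspa4, Hspa4l, Hspa8, Hspa9, Hspa13, Hspa14 and Hsph1. Of these, 9 were measured among 25189 gene symbols, 8 passed the filter on low counts and entered a fit over 14184 genes, and Hspa1a was not analysed here. RNA was sequenced from tissue labelled as kidney of male wild-type C57BL/6 mice at day 2. In 1 group of 3 libraries the kidney had gone through ischaemia and reperfusion (I/R), in which its blood flow is stopped and then restored. In the other group of 3 libraries I/R was combined with chemerin-9 (C9 in the labels), a peptide cut from chemerin that acts on its receptor, and the sources used here do not give its dose. Nothing in the labels ties a library to a mouse of its own. Where p-values are given, they therefore measure only the spread between libraries, which may be technical. The family was picked with results of this same comparison already known. Its own differences are therefore given as a description, with no p-value for a member. Where members are counted past a threshold, the threshold is that of the fit over all genes and the count is no test of the family.

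An HSP70 protein grips exposed hydrophobic stretches of an unfolded client and lets go of them in a cycle set by ATP. J-domain proteins bring clients and trigger ATP hydrolysis, and nucleotide exchange factors, among them the HSP110 proteins, reset the cycle by releasing ADP. Heat shock factors switch on the inducible members when unfolded protein builds up, whereas the constitutive and mitochondrial members serve folding and import in unstressed cells. In the injured kidney HSP70 is widely studied as a protective stress protein of tubular cells.

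The labelled tissue was checked against marker genes, and those of kidney tubules were scarce. Of 20 nephron markers 9 were measured, summing to 36.9 to 39.5 CPM in the I/R libraries and 39.7 to 47.1 CPM in the treated ones, with a median between 0.669 and 0.861 CPM per library, where CPM is a gene's count scaled to the size of its library. Lrp2 (megalin), which takes up filtered protein in the proximal tubule, averaged 3.19 ± 0.531 CPM over the 3 I/R libraries and 3.37 ± 0.747 CPM over the 3 treated ones (± SD throughout). Aqp1, the water channel of the proximal tubule, averaged 18.2 ± 0.201 and 17.7 ± 2.05 CPM, and Podxl, of podocytes and endothelium, was higher with chemerin-9 (12.5 ± 1.51 and 17.7 ± 1.14 CPM, edgeR adjusted p = 0.0017), both named after their values were seen. Endothelial Pecam1 held 0.119 ± 0.117 and 0.478 ± 0.224 CPM. The division gene Top2a stood at 1752 ± 46.8 and 1757 ± 45.4 CPM and the collagen gene Col1a1 at 771 ± 28.2 and 800.2 ± 20.5 CPM. Summed over 8 fibroblast markers, the I/R libraries held 4863 to 4973 CPM and the treated ones 4104 to 4215 CPM. These markers were split at an edgeR adjusted p under 0.05. Vim (1366 ± 38.3 and 853 ± 21.8 CPM), Fn1 (2322 ± 44.3 and 2122 ± 39.9 CPM) and Col1a2 were lower with chemerin-9. Pdgfrb (35.1 ± 2.75 and 49.2 ± 1.98 CPM) and Col3a1 were higher, all of them named after their values were seen. The sum over 5 endothelial markers was 5.56 to 6.49 and 10.2 to 12.4 CPM. Most of it came from Flt1 (4.81 ± 0.423 and 9.25 ± 1.06 CPM), named after its values were seen. Cdh5 of that list was not higher (0.483 ± 0.165 and 0.389 ± 0.266 CPM, groups overlapping). Over 4 leukocyte markers the sum was 4.37 to 6.02 and 4.36 to 6.57 CPM. Red blood cells had 3 of 5 markers measured, summing to 1.64 to 3.68 and 2.00 to 3.17 CPM with Hbb-bs at 0, and 10 division markers summed to 4381 to 4553 and 4291 to 4396 CPM. The division markers were split too at an edgeR adjusted p under 0.05. Mki67 (1050 ± 22.4 and 938 ± 14.4 CPM), Aurkb (131 ± 4.63 and 96.2 ± 5.18 CPM) and Plk1 were lower with chemerin-9. Mcm2 (368 ± 6.37 and 413 ± 7.89 CPM) was higher, and the rest did not pass. These 4 were named after their values were seen. Libraries held 11217252 to 16938301 counts. The share of mitochondrial genome genes lay at 2.81% to 2.94% in the I/R libraries and at 2.56% to 2.64% in the treated ones, and that of 18S RNA 0.381% to 0.517% and 0.261% to 0.306%. The part of these shifts in the results below was not tested. Nephron, blood and leukocyte markers this low beside Top2a and Col1a1 this high leave it uncertain that the RNA is that of whole kidney, as labelled. If it is bulk tissue, fewer cells of a type and less RNA per cell cannot be told apart. Each library carries a batch value of its own in the labels, so batch and treatment cannot be told apart.

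RefSeq promoters (GRCm38.p6, 250 bases before the start to 50 after) were matched for 7 of the 10 members and not for Hspa8, Hspa9 and Hspa13. Heat shock factors bind inverted repeats of the unit GAA. Both strands were therefore searched for a pair of units, GAANNTTC or TTCNNGAA, and for a triple, in which a pair is followed across NN by one more unit in the alternate orientation and which therefore contains both kinds of pair, overlapping. A pair occurred in 15.1% of all 32851 promoters of this length and a triple in 0.603%. A triple was found in Hsph1 (chr5:149636266-149636565, minus strand), starting at position 15 with the start site at 0, and a further pair at -54. Counted from a second listed Hsph1 start site, these matches begin at 36 and -33. Hspa1b (chr17:34959189-34959488, minus strand) had 1 pair at -104. The 300-base promoter of Hspa1a differed from it at 4 positions and held a pair at the same position. Neither the pair nor the triple was present in the windows of Hspa2, Hspa14, Hspa4l (chr3:40745363-40745662, plus strand) or Hspa4 (chr11:53300430-53300729, minus strand). The promoters of Hspa1b and of the 3 HSP110 genes are shown because the levels of these genes went different ways, with matches to the pair or the triple in capitals. CCAAT boxes (CCAAT or ATTGG), searched as well and not in capitals, occurred in 37.4% of all promoters. There was 1 in Hspa1a, in Hspa1b and in Hspa2, 2 in Hsph1, 3 in Hspa14 and 0 in Hspa4 and Hspa4l.
Hspa1b: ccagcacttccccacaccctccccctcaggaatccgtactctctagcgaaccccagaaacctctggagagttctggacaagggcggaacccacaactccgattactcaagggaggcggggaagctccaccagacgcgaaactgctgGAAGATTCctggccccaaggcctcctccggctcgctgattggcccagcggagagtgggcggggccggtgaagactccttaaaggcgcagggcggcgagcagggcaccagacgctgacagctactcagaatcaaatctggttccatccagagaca
Hsph1: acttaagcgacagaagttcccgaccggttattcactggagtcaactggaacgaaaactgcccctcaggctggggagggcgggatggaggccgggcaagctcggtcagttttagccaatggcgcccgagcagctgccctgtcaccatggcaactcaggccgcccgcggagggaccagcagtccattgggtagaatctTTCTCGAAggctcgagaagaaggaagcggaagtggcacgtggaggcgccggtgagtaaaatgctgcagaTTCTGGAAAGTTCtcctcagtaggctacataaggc
Hspa4l: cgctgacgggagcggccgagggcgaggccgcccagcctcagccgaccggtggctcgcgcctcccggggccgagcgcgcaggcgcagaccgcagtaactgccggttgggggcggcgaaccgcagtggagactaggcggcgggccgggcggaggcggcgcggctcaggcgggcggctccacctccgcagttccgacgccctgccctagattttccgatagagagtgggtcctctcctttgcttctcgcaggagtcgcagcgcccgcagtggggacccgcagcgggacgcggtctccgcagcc
Hspa4: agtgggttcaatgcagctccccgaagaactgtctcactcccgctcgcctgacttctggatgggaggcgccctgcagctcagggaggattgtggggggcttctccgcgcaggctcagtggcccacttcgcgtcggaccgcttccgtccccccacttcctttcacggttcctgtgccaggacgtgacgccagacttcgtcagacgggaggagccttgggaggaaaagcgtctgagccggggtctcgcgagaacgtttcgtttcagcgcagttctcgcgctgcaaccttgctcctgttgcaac
Among the HSP110 genes, the window with a triple (Hsph1) and one without a pair (Hspa4l) both belonged to genes that were lower with chemerin-9, and Hspa4, which was higher, had no pair. The Hspa4l window lies inside the GENCODE gene model given further on, downstream of its annotated start, so the sequence before that start was not searched. The GC content of these windows was 58.0% in Hsph1, 61.0% in Hspa1b, 62.7% in Hspa4 and 74.7% in Hspa4l. A match to letters is no evidence of binding, and these windows leave out distant elements.

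With chemerin-9 the constitutive cytosolic chaperone gene Hspa8 was 4.17 times lower than in I/R, the mitochondrial gene Hspa9 was nearly level, and the HSP110 genes split. Of the 8 tested members, 6 passed as lower and 1 (Hspa4) as higher at a Benjamini-Hochberg adjusted p under 0.05 in edgeR's quasi-likelihood test. Among all 14184 genes 51.7% passed, 26.1% as lower and 25.6% as higher, and nothing is read from the members' count. Lower by at least 1.5-fold were 4 members, Hspa8, Hspa4l, Hspa2 and Hsph1, against 7.76% of all genes. In all 8 members the values of the groups were fully separate, 7 lower and 1 higher, as they were in 58.5% of all genes. The median log2 fold change (chemerin-9 over I/R) was -0.44 over the 8 members and -0.0037 over all genes tested. Scaled to plain library size, without the composition factor of the trimmed mean (TMM), 2891 of all genes passed as lower and 4473 as higher, against 3699 and 3637.

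**Figure D1:**
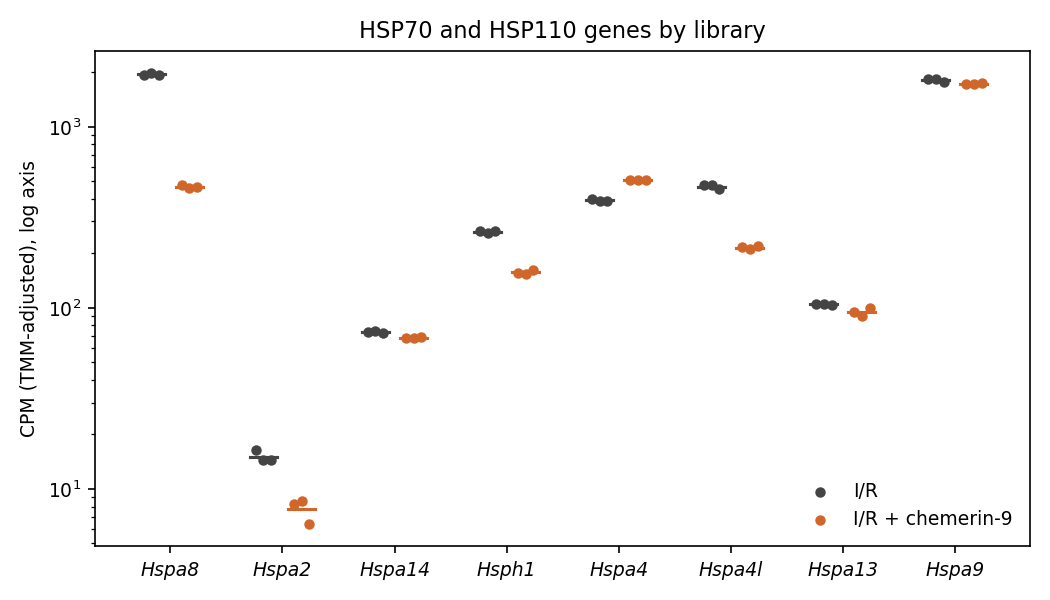
CPM of the 8 tested members in each library on a log axis, with dots for libraries and a line for the group mean. The mean of Hspa8 is 1948 CPM in I/R, against 467 CPM under chemerin-9, while the Hspa9 groups lie close together and Hspa4 is the only member with the chemerin-9 libraries on top.

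The inducible cytosolic HSP70 gene measured, Hspa1b (chr17:34956436-34959238, GRCm38, minus strand, 1 exon), was close to the counting floor in both groups. It held 7, 14 and 8 counts in the I/R libraries and 0, 1 and 0 counts in the chemerin-9 libraries. Every I/R library lay above every chemerin-9 library, yet the highest level reached was 1.04 CPM. On the summed counts, 29 against 1 and scaled to library totals, the ratio of I/R to chemerin-9 was 25.5. With 1 count in the chemerin-9 group the size of that ratio is very uncertain. It is given as a description and is no test. Hspa1b did not pass the filter on low counts and has no fitted fold change. Its transcript matches that of the neighbouring gene Hspa1a at 99.2% identity over 2201 bases, so reads of the pair could not be assigned with certainty. Hspa1l, a neighbouring family gene best known from testis and named here after its values were seen, was at 0.766 ± 0.286 and 1.07 ± 0.362 CPM and did not pass (log2 fold change 0.47, SE 0.40, edgeR adjusted p = 0.35).

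Among the constitutive cytosolic members, Hspa8 (chr9:40800984-40810087, GRCm38, plus strand, 9 exons), which folds new proteins and strips clathrin from vesicles, held 1943, 1974 and 1927 CPM in I/R. With chemerin-9 it held 476, 462 and 462 CPM. The libraries within a group lay within a few percent of one another and the groups were far apart. The log2 fold change was -2.06 (SE 0.03), and 32 of the 14184 tested genes had a lower one. Hspa2 (chr12:76404176-76406938, plus strand), a testis-enriched member needed in meiosis, held 16.4, 14.4 and 14.4 CPM in I/R and 8.28, 8.55 and 6.44 CPM with chemerin-9. Its log2 fold change was -0.96 (SE 0.13), at a level far below that of Hspa8.

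Hspa14 (chr2:3488850-3512814, minus strand, 14 exons), whose protein sits at the ribosome with a J-domain partner, differed little. It held 73.3, 74.2 and 72.7 CPM in I/R and 68.4, 68.1 and 68.8 CPM with chemerin-9. The groups did not overlap, and the fitted log2 fold change was -0.10 (SE 0.05), or -0.032 with plain library sizes. Exons of Hspa14 overlap those of Gm45902 on the same strand, which was higher with chemerin-9 (17.5 ± 0.772 and 25.4 ± 1.23 CPM), so the split of reads between these genes is uncertain.

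Much of the Hspa8 signal has a twin. The processed pseudogene Gm15459 (chr5:5781615-5783555, GRCm38), a copy of the spliced transcript in the genome, aligns with Hspa8 over 1941 bases with 5 differing bases, and 672 bases in a row are the same. The window of 61 bases around a differing base, in capitals, shows how little tells them apart.
Hspa8: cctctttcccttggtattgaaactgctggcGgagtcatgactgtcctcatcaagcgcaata
Gm15459: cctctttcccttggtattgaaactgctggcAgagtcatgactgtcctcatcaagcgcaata
Gm15459 held 1829, 1788 and 1620 CPM in I/R and 422, 403 and 421 CPM with chemerin-9. As a percent of the Hspa8 counts this was 94.1, 90.6 and 84.1 in I/R and 88.6, 87.3 and 91.1 with chemerin-9, so the groups overlapped in this ratio. Its log2 fold change was -2.07 (SE 0.04), against -2.06 for Hspa8 and -2.06 for Hspa8 summed with Gm15459 and the weaker copies Gm8355 and Gm6210. The sources used here do not say how reads were shared between these loci. The absolute level of Hspa8 is uncertain for that reason, and the difference between the groups was the same size at either locus.

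The HSP110 genes, whose proteins release ADP from HSP70 and hold unfolded clients, went in different directions. Hsph1 (chr5:149614287-149636376, minus strand, 17 to 19 exons), the heat-inducible member, held 266, 259 and 265 CPM in I/R and 155, 153 and 163 CPM with chemerin-9. Hspa4l (chr3:40744495-40796103, plus strand, 19 exons), first described as an osmotic stress protein, held 475, 475 and 451 CPM in I/R and 216, 211 and 219 CPM with chemerin-9. Both were lower in every chemerin-9 library, with log2 fold changes of -0.75 (SE 0.04) for Hsph1 and -1.12 (SE 0.04) for Hspa4l. Hspa4 (chr11:53259814-53300457, minus strand, 19 exons), the broadly expressed HSP110 gene, held 397, 391 and 390.1 CPM in I/R and 506, 510.3 and 510.3 CPM with chemerin-9. It was the single member higher with chemerin-9, with a log2 fold change of 0.37 (SE 0.03) that stayed between 0.37 and 0.44 under every alternative run.

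Hspa13 (chr16:75745431-75767104, minus strand), a microsomal member without the usual client-binding domain, held 105, 106 and 103 CPM in I/R and 94.6, 90.2 and 99.5 CPM with chemerin-9. The groups did not overlap, at a log2 fold change of -0.14 (SE 0.05). Hspa13 left the count of members past the threshold with plain library sizes (-0.073) and without chemerin-9 replicate 2 (-0.11). Hspa9 (chr18:34937414-34954357, minus strand, 17 exons) encodes mortalin, the mitochondrial HSP70 that pulls proteins through the inner membrane. It held 1824, 1844 and 1756 CPM in I/R and 1724, 1721 and 1733 CPM with chemerin-9.

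For Hspa9 the groups did not overlap, but the gap between the lowest I/R and the highest chemerin-9 library was smaller than the range of the I/R libraries. The log2 fold change was -0.067 (SE 0.03). It was 0.0019 with plain library sizes, so that its direction rests on the scaling. It also left the count of members past the threshold with upper quartile factors, with the replicate number as a block, and without any 1 library other than I/R replicate 3. Without that library, which differs from the other I/R libraries by a chi-square per degree of freedom of 6.16 and 5.61 against 1.82 between them, the log2 fold change was -0.0895. Between Hspa8 and Hspa9, measured in the same libraries, the ratio of levels per kilobase does not depend on library scaling. It was 1.36, 1.36 and 1.40 in I/R and 0.352, 0.342 and 0.339 with chemerin-9.

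**Figure D2:**
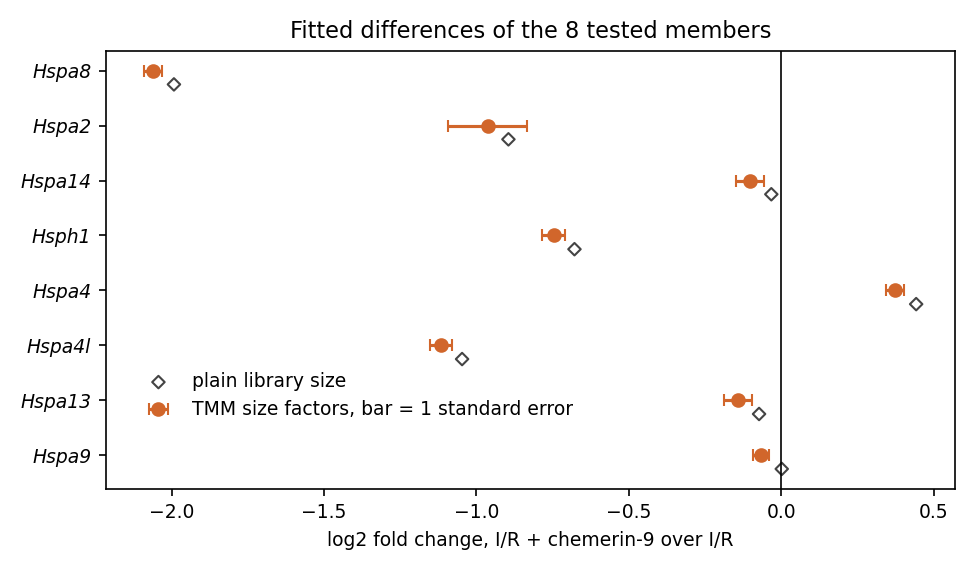
Fitted log2 fold change (chemerin-9 over I/R) of the 8 tested members, with filled circles and 1 standard error for TMM factors and open diamonds for plain library sizes. Plain library sizes move every member up, and Hspa9 from -0.067 to 0.0019, while Hspa8, Hspa4l, Hspa2 and Hsph1 keep to the left and Hspa4 to the right of 0.

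Levels were compared between genes as CPM per kilobase of exonic length. In I/R the order was Hspa8 (814 ± 10.04), Hspa9 (593 ± 15.3), Hspa4 (85.02 ± 0.842), Hsph1 (62.4 ± 0.935), Hspa4l (48.5 ± 1.44), Hspa14 (40.9 ± 0.428), Hspa13 (24.2 ± 0.285), Hspa2 (5.71 ± 0.439) and Hspa1b (0.247 ± 0.108). With chemerin-9 Hspa9 came first at 566 ± 2.10, ahead of Hspa8 at 195 ± 3.50 and Hspa4 at 110.2 ± 0.522 CPM per kilobase. Hspa14 (38.1 ± 0.185) and Hsph1 (37.2 ± 1.20) did not differ beyond their spread there, nor did Hspa4l (22.4 ± 0.453) and Hspa13 (21.9 ± 1.07), and Hspa2 followed at 2.93 ± 0.435. The exonic length of Hspa4l, 9618 bases, is the longest of the family and lowers its level on this scale.

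The family pool, summed over the 9 measured members, came to 1674 ± 26.4 CPM per kilobase in I/R. With chemerin-9 it came to 994 ± 5.13 CPM per kilobase (n = 3 in both groups). Of the gap of 680 CPM per kilobase, Hspa8 made up 91.0%. The pool leaves out the related genes Hspa5 (621 ± 7.05 and 295 ± 2.99 CPM per kilobase) and Hyou1 (92.8 ± 1.77 and 52.6 ± 1.57), taken up below. The shares therefore hold for the chosen members only. The other 8 members together held 860 ± 17.5 and 799 ± 4.63 CPM per kilobase. Hspa8 made up 48.3%, 48.6% and 48.9% of the pool in I/R and 19.97%, 19.5% and 19.4% with chemerin-9. The share of Hspa9 was 35.4% ± 0.364 in I/R and 56.97% ± 0.193 with chemerin-9, and that of Hspa4 5.08% ± 0.0827 and 11.1% ± 0.0940. On this scale Hsph1 kept nearly the same share, 3.73% ± 0.102 and 3.74% ± 0.107, because its level and the pool were lower in like proportion. With the counts of Gm15459 added to Hspa8, an alternative chosen after the data were seen, the share of Hspa8 was 64.2% ± 0.339 in I/R and 31.6% ± 0.390 with chemerin-9. The share of Hsph1 was then 2.60% ± 0.0968 and 3.18% ± 0.0864. Without Gm15459 and without division by length it was 5.19% ± 0.142 and 4.83% ± 0.130, so its near constancy rests on the scale.

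Within the HSP110 genes the make-up also differed. Hspa4 held 43.4% ± 0.121 of their summed level per kilobase in I/R and 64.9% ± 0.610 with chemerin-9. Hsph1 went from 31.8% ± 0.458 to 21.9% ± 0.479 and Hspa4l from 24.8% ± 0.572 to 13.2% ± 0.174. The sum itself was 196 ± 2.26 and 170 ± 1.78 CPM per kilobase, a narrower gap than in Hspa8. The ratio of the cytosolic HSP70 genes (Hspa8, Hspa2, Hspa14 and Hspa1b) to the HSP110 genes was 4.39 ± 0.0691 in I/R and 1.39 ± 0.0312 with chemerin-9.

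**Figure D3:**
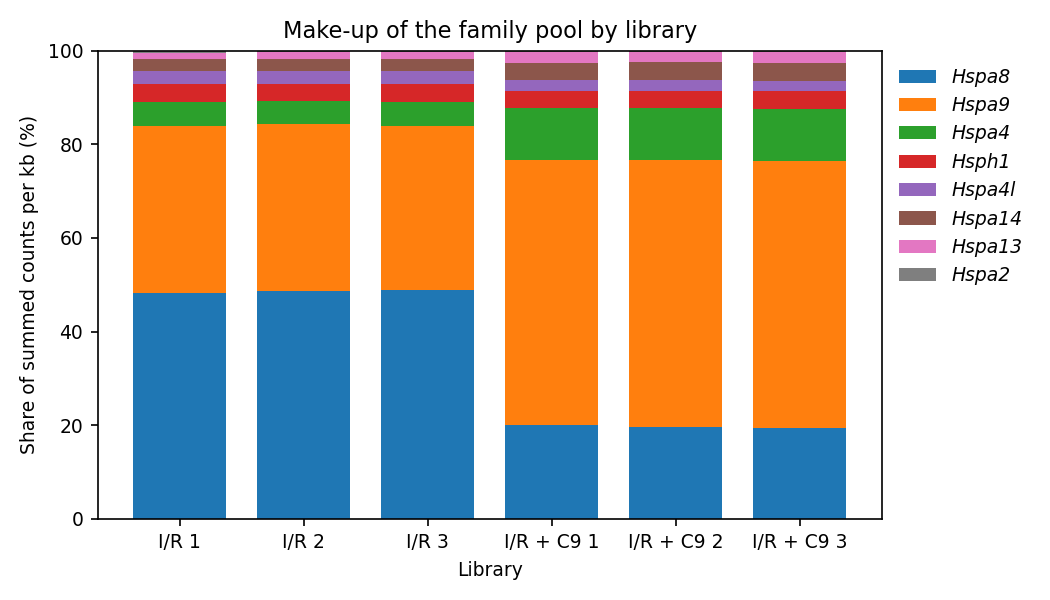
Share of each member in the summed counts per kilobase of the family, in percent, as 1 stacked bar per library (C9 stands for chemerin-9). Hspa8 takes 48.3% to 48.9% in the I/R libraries and 19.4% to 19.97% in the chemerin-9 libraries, where Hspa9 is the widest band. Hspa1b is left out because its share is at most 0.022%.

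The partners of HSP70 were taken from lists set by gene name, and their differences were tested in the same fit. Some genes stand in more than 1 list, among them Dnaja1, Dnajb1, Bag3, Stip1, Hspd1, Hspe1, Hyou1 and Dnajc7. The counts of the lists are therefore not independent. Each count of genes that fell or rose stands beside 26.1% lower and 25.6% higher among all genes, and nothing particular to a list is read from it. The related family genes of the endoplasmic reticulum fell with chemerin-9. Hspa5, which encodes the HSP70 of that compartment (BiP), fell from 2332 ± 26.5 to 1107 ± 11.2 CPM, and Hyou1, its large HSP110-like partner, from 443 ± 8.47 to 251 ± 7.49 CPM (log2 fold change -0.82, SE 0.03, edgeR adjusted p = 1.4e-10). Hspa12a, a distant family member, fell from 32.4 ± 0.712 to 17.2 ± 1.16 CPM. Hspa12b, its relative known from endothelium, rose from 5.60 ± 0.681 to 8.79 ± 1.07 CPM (log2 fold change 0.64, edgeR adjusted p = 0.0023). The endothelial marker sum given above was also higher in that group but came mostly from Flt1, and a link was not tested. Of the 5 related family genes 3 fell and 1 rose, with a median of -0.82.

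Of 18 genes listed as targets of heat shock factor 1 (HSF1), 17 fell and 0 rose in edgeR, with a median log2 fold change of -0.59, where 26.1% of all genes passed as lower. Lower by at least 1.5-fold were 9, against 7.76% of all genes. At an unadjusted p under 0.05, 18 were lower and 0 higher. DESeq2 called 17, each of them lower, and plain library sizes left 15 lower and 0 higher. Hspb1, which holds unfolded clients without ATP, went down from 202 ± 8.26 to 28.2 ± 2.89 CPM (log2 fold change -2.84, SE 0.06, edgeR adjusted p = 7.8e-14). Hsp90ab1 and Hsp90aa1, the cytosolic HSP90 genes that take clients over from HSP70, fell by 1.14 and 1.06 on the log2 scale. Serpinh1, the collagen chaperone, fell from 1366 ± 79.4 to 724 ± 23.7 CPM. The gene of this list that did not pass was Stip1, which bridges HSP70 and HSP90 and is named for that reason, at 462 ± 5.98 and 441 ± 8.80 CPM (edgeR adjusted p = 0.085). Near-identical copies were searched for the family members and not for these partners.

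The transcription factors upstream differed little. Hsf1, the main heat shock factor, held 76.0 ± 2.27 and 80.6 ± 4.29 CPM (log2 fold change 0.085, edgeR adjusted p = 0.19), and passed as higher only with plain library sizes. Hsf2, a developmental factor that pairs with HSF1, rose from 91.7 ± 0.995 to 99.1 ± 3.77 CPM (log2 fold change 0.11, edgeR adjusted p = 0.046). Hsbp1, listed with them as a protein that binds and restrains HSF1, rose from 74.3 ± 2.88 to 82.8 ± 6.23 CPM (log2 fold change 0.16, edgeR adjusted p = 0.033). Its groups overlapped, with up to 77.6 CPM in I/R and from 75.6 CPM with chemerin-9. Hsf4, known from the lens, did not pass (log2 fold change -0.23, edgeR adjusted p = 0.16). So 2 of the 4 tested genes of the list, the factor Hsf2 and the regulator Hsbp1, rose and 0 fell, also at an unadjusted p under 0.05. No gene of the list passed with DESeq2, where 1 had an unadjusted p under 0.05. None passed in edgeR without I/R replicate 1, I/R replicate 2, chemerin-9 replicate 2 or chemerin-9 replicate 3, where 0 to 1 had an unadjusted p under 0.05. These are RNA levels, and HSF1 activity was not measured here.

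J-domain proteins moved both ways. Of 43 tested, 15 fell and 13 rose, with a median of -0.0042, beside 26.1% lower and 25.6% higher among all genes. With plain library sizes the balance turned to 12 lower and 15 higher. Dnaja1 and Dnajb1, the heat-inducible cytosolic partners of HSP70, fell by 0.57 and 0.55 on the log2 scale, to 250 ± 9.88 and 57.4 ± 0.573 CPM. Dnajb2, known from neurons, fell by 0.71 on the log2 scale. Dnajc5, the cysteine string protein of secretory vesicles, rose from 115 ± 2.13 to 180 ± 5.88 CPM (log2 fold change 0.65, SE 0.04, edgeR adjusted p = 6.5e-09).

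Nucleotide exchange factors split as well, with 5 of 11 lower and 4 higher and a median of -0.17. With DESeq2 5 were lower and 2 higher. Those that fell included Bag3 (40.1 ± 1.03 to 26.4 ± 2.54 CPM), the heat-inducible one that directs clients to autophagy, Bag1 (98.6 ± 6.24 to 72.0 ± 2.73 CPM), which links HSP70 to the proteasome, and Bag6 (246 ± 7.43 to 183 ± 2.82 CPM), which handles tail-anchored proteins. Of the 10 co-chaperones with tetratricopeptide repeats or client transfer roles, 2 fell and 3 rose (median 0.052), or 2 and 5 with plain library sizes. St13, which stabilises the ADP state of HSP70, fell from 582 ± 14.5 to 405 ± 15.5 CPM. Tomm70a, the import receptor to which HSP70 delivers mitochondrial preproteins, rose from 288 ± 6.36 to 354 ± 7.49 CPM. Dnajc7, which carries both repeats and a J-domain, rose from 110 ± 4.39 to 125 ± 1.75 CPM. Spag1 rose from 5.96 ± 0.571 to 17.7 ± 0.987 CPM (log2 fold change 1.57, SE 0.12, edgeR adjusted p = 5.0e-08).

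The partners of Hspa9 in mitochondria included 6 genes that rose and 3 that fell of 13 (median 0.12), where 25.6% of all genes passed as higher and 26.1% as lower. With plain library sizes 7 rose and 3 fell. With DESeq2 4 rose and 3 fell, and with 1 library left out 5 or 6 rose and 3 fell. Dnlz, the escort protein that keeps Hspa9 soluble, rose from 14.5 ± 1.58 to 26.4 ± 0.452 CPM (log2 fold change 0.86, SE 0.09, edgeR adjusted p = 2.6e-06). The other partners that rose were the exchange factors Grpel1 and Grpel2 and the import genes Dnajc15, Pam16 and Timm23, named after their values were seen. Hscb, the J-domain protein of iron-sulfur cluster assembly, fell from 13.5 ± 3.12 to 6.28 ± 0.991 CPM. The mitochondrial chaperonin genes Hspd1 and Hspe1 fell by 0.28 and 0.75 on the log2 scale, and the I/R libraries held 156, 169 and 234 CPM of Hspe1.

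**Figure D4:**
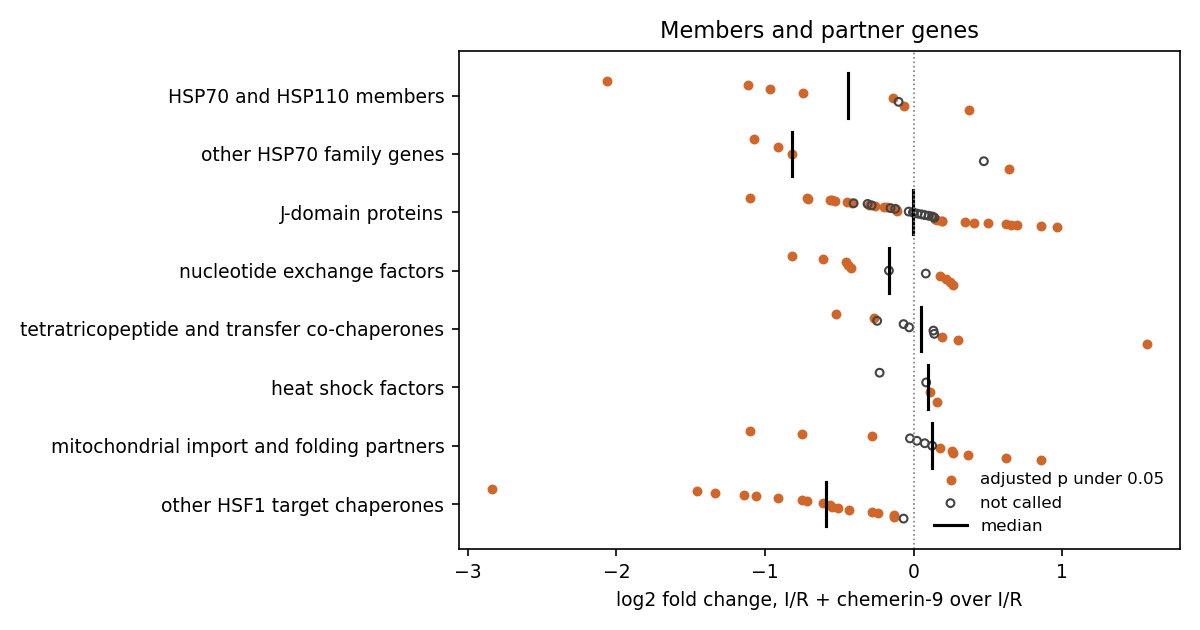
Fitted log2 fold change (chemerin-9 over I/R) of the family members and of each partner list, 1 point per tested gene, filled where the edgeR adjusted p was under 0.05, with the median as a black line. The HSF1 target list lies wholly left of 0, down to -2.84 for Hspb1, while the J-domain list spreads on both sides around -0.0042.

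Patterns across the 6 libraries were compared by the Euclidean distance between log2(CPM + 0.5) profiles, each centred on its own mean. Nearest to Hspa8 were Gm15459 (distance 0.13), the interferon-induced gene Oas2 (0.18), the transferrin receptor gene Tfrc (0.19), Oas1g (0.24) and the chemokine gene Cxcl10 (0.26). Tfrc went from 275 ± 9.16 to 73.0 ± 1.91 CPM and Oas2 from 12.5 ± 0.365 to 2.38 ± 0.12 CPM. The fitted log2 fold changes were -2.38 for Oas2, -2.41 for Cxcl10, -2.07 for Oas1g and -1.92 for Tfrc, against -2.06 for Hspa8. With chemerin-9 Oas2 and Cxcl10 averaged only 2.38 and 2.77 CPM, where the added 0.5 narrows their differences. Their nearness to Hspa8 therefore depends partly on that constant, and shared regulation was not tested. Nearest to Hspa9 were Ehbp1, Racgap1, Pbrm1, Rbfox2 and Zswim6, at distances of 0.019 to 0.034, with log2 fold changes between -0.080 and -0.058. Nearest to Hspa1b were Gm29123, Stambp-ps1, Gm43197, Crebrf and Gm15489, at 0.27 to 0.37. Hspa1b itself lay between 0 and 1.04 CPM, near the added 0.5, so its profile depends on that constant and no likeness is read from these names.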

How the data were processed

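The authors deposited raw counts per gene symbol for 6 libraries, with no normalization according to the values. HISAT2, HTSeq, DESeq 1.18.1 and build mm10 are named in the submitters' processing notes, and libraries came from a stranded mRNA kit per the labels' protocols. The sources used here do not state the strand setting or the annotation behind them. Of 25216 rows, 27 repeated a symbol with the same counts and were removed. Columns named I were matched to I/R by the labels. Columns named IC were read as I/R with C9, a reading no label states, and every statement on chemerin-9 rests on it. Their treatment labels run from C9 through C10 to C11, and the titles, which all read C9, were followed.

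Counts were fitted with edgeR 4.0.16 (R 4.3.3): TMM factors, filterByExpr by group, quasi-likelihood test on group, Benjamini-Hochberg adjustment over 14184 genes at 0.05. These genes took 99.8% of all counts. Exonic lengths, exons and transcripts came from GENCODE M21 (GRCm38), where 97.5% of 22521 shared genes had the start given in the table. Copies were searched with BLAST 2.17.0 at 95% identity over 50% of the shorter transcript. Alternatives included DESeq2 1.42.0. The test procedure was tested on simulated data.

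Members and lists were chosen with earlier results of these data known. Named were all members, up to 4 genes with the smallest p per partner list, Hspa5, Hyou1, Hsf1, Hsf2 and Hsp90ab1, a marker per cell type, member copies and the 5 nearest patterns to 3 members. Within-group library pairs differed by more than sampling noise (chi-square per degree of freedom 1.82 to 6.16), so none was treated as a repeat deposit of another, which does not show that they came from separate mice.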

Additional observations from a re-analysis of the deposited data

How the results depend on the processing

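The number of family members passing the threshold, 7 of 8, lay between 5 and 8 under the alternatives run (8 of 9 without a filter on low counts, where Hspa1b was tested too), and all genes passing between 6043 and 7747. The log2 fold changes of Hspa8, Hspa4l, Hspa2, Hsph1 and Hspa4 kept their direction and their side of the threshold under each alternative. That of Hspa9 was reversed to 0.0019 with plain library sizes. The median over the members moved from -0.44 to -0.38 with plain library sizes and lay between -0.48 and -0.42 with 1 library left out. The heat shock factor list had 1 call without a filter on low counts, 1 with the replicate number as a block, 0 with DESeq2 and 0 to 2 with 1 library left out. Without division by length the share of Hspa8 was 38.4% in I/R and 14.4% with chemerin-9, and with Gm15459 added it was 64.2% and 31.6%. It lay between 48.5% and 48.8%, and between 19.4% and 19.7%, with 1 library left out. The cause of these changes was not tested. No pairing by replicate number was detected. Deviations of same-numbered libraries correlated at 0.14, -0.079 and 0.053, and not every library correlated best with its own number. Deviations from means of only 3 libraries are a weak check, which cannot exclude pairing. With that replicate block 7300 genes passed, and 6 members, Hspa9 no longer among them. A sum of Hspa1a and Hspa1b could not be run, because Hspa1a was not analysed here. Hspa1b held only 1 count in 3 chemerin-9 libraries. How far depth or reads shared with Hspa1a lowered its counts was not tested.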
